A study of Mus musculus with 9 samples.

Results

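The genes for CTCF and the cohesin complex were examined in open chromatin of the early mouse heart. They were chosen by name: Ctcf, the cohesin ring genes Smc1a, Smc3 and Rad21, the accessory subunit genes Stag1 and Stag2, the loader genes Nipbl and Mau2, and the regulator genes Pds5a and Pds5b. Of these 10 genes, 9 had at least 1 accessible region assigned to them, and the 9 genes held 13 of the 17164 distinct regions, which were spread over 11541 genes. Mau2 was the gene without a region under its own name.

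The study profiled chromatin accessibility by ATAC-Seq, an assay that tags open DNA with adapters carried by a transposase (Tn5), to ask whether loss of the transcription factor Isl1 or of the remodeler Brg1 changes chromatin opening. Pharyngeal mesoderm and hearts came from mouse embryos at embryonic day 8.75 (6 somites), in 9 libraries: 3 wt controls, 3 Isl1-/- and 3 Isl1Cre+/-/ Brg1fl/fl, in which Cre made from the Isl1 locus removes Brg1 only from cells that have expressed Isl1. The data used here were a single list of regions shared by the 3 control libraries, without a height, score or value per library. The mutants were not analyzed here, so no genotype was compared, depth is unknown, and no region has a replicate error.

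The dissected tissue can hold several cell types, and the list was checked against their markers. At least 1 region was assigned to 8 of 10 cardiac and pharyngeal progenitor markers (not to Tbx1 and Nkx2-5), to 2 of 7 cardiomyocyte markers (Actn2 and Ryr2), to 3 of 4 endothelial, 2 of 4 blood, 3 of 4 neural, 1 of 3 neural crest and 3 of 3 endoderm markers, beside 49.3% of all protein-coding genes. Within 1 kb of the start, the counts were 6 of 10 progenitor, 2 of 7 cardiomyocyte, 1 of 4 endothelial, 0 of 4 blood, 2 of 4 neural, 0 of 3 neural crest and 0 of 3 endoderm markers, beside 40.6% of all protein-coding genes. With so few genes in each list, these counts do not show which cell types were present. Which cells carried the open regions of the CTCF and cohesin genes was not tested.

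CTCF is a zinc-finger protein that binds a long GC-rich DNA motif and, in one orientation, halts the movement of cohesin along chromatin. Cohesin is a ring of SMC1A, SMC3 and RAD21 with a STAG subunit, which extrudes DNA loops and holds sister chromatids together. NIPBL and MAU2 load it onto DNA, and PDS5A and PDS5B bind the loaded ring and help to release or stabilize it. Heterozygous loss of NIPBL causes Cornelia de Lange syndrome, in which heart defects are common.

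The sequences at the starts are shown first because the genes differ there in base composition and in the patterns they hold. Each line gives the reference sequence of NCBIM37 (mm9), read 5′ to 3′ in the direction of the gene, from 220 bases before the start to 30 after it. For Ctcf the start given by the list was taken, which lies upstream of the coding start in GENCODE. Capitals mark matches on either strand to the patterns searched (CTCF, SP/KLF, NF-Y, ETS and E2F among the windows shown). Stag2 and Pds5b are shown for a match to the CTCF core pattern near the start, and Nipbl for the widest region. Ctcf is shown for a CpG-rich start with no match to the CTCF core pattern in the printed stretch. Its region held matches further on, 182 and 471 bp downstream of the GENCODE coding start.
Ctcf (chr8:108160218-108160467, + strand): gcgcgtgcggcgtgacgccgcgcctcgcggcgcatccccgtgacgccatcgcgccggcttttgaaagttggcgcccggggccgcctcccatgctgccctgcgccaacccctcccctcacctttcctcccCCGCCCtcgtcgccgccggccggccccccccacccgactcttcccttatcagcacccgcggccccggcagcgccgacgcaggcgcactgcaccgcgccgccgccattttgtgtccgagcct
Stag2 (chrX:39502274-39502523, + strand): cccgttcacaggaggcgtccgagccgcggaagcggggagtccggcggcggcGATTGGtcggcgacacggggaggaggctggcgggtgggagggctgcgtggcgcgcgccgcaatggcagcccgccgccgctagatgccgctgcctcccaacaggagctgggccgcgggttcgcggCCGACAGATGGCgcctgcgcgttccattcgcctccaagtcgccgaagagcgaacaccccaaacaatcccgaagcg
Pds5b (chr5:151476094-151476343, + strand): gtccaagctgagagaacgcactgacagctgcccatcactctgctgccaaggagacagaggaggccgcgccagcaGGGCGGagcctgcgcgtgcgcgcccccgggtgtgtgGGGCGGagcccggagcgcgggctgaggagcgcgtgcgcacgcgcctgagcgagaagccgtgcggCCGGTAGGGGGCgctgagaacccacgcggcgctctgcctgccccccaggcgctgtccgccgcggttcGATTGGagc
Nipbl (chr15:8394434-8394683, - strand): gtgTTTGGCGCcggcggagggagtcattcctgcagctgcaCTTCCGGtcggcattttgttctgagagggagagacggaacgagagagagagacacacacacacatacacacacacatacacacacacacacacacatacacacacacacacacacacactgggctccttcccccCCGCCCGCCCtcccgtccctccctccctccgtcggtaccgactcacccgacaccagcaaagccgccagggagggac

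The next pair is shown because coding starts of neighboring genes on opposite strands lie inside 1 region. Each line runs from 30 bases inside one gene to 30 bases inside the other, on the + strand.
Mau2 and Sugp1 (chr8:72566604-72566741, + strand): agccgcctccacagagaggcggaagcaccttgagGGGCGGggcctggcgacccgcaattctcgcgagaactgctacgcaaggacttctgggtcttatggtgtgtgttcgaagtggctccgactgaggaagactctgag
Smc1a and Ribc1 (chrX:148450809-148451000, + strand): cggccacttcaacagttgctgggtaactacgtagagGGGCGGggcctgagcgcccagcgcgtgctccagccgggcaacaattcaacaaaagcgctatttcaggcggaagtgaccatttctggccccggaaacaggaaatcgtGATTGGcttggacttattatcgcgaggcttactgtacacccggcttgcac

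Nearly all of the genes had an accessible region at their start. A region within 1 kb of the assigned start, called a start region here, was found for 9 of 10 genes. For comparison, 49.3% of 21027 protein-coding genes had any assigned region and 40.6% had one within 1 kb. The remaining gene, Mau2, encodes the partner of NIPBL in the loader, and its start at position 72566633 of chromosome 8 was covered by a region of 1195 bp (chr8:72566178-72567372). The list assigned that region to Sugp1, a splicing-related gene that starts 79 bp away on the other strand. Counting regions of any symbol, all 10 genes had a coding start inside a region, against 43.4% of 22225 coding genes in GENCODE. Of the 9645 genes with such an open start, 11.3% had no region under their own name, as Mau2 did.

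**Figure D1:**
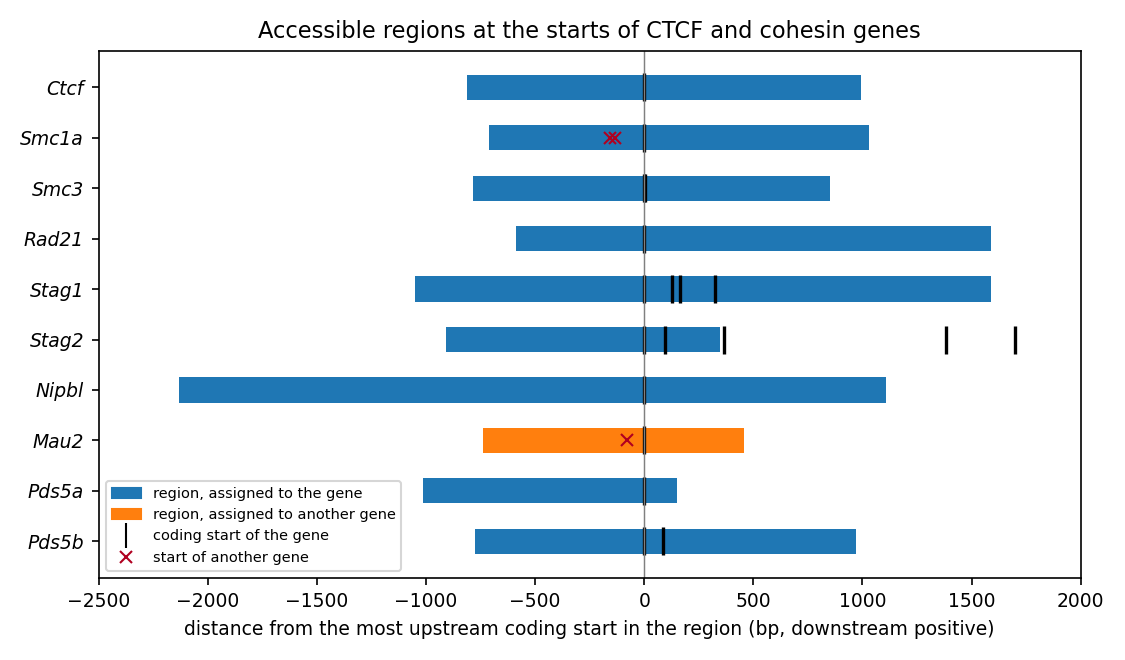
Accessible regions over the starts of the 10 genes, drawn in bp from the most upstream coding start inside each region, with transcription to the right. Bars are regions, black ticks are coding starts of the gene and crosses are starts of a neighboring gene. The Nipbl region is the longest at 3241 bp and reaches 2132 bp upstream, and the Pds5a region the shortest at 1167 bp.

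The ring genes differed in how their regions lay over the start. Smc1a and Smc3 encode the ATPase arms of the ring. The Smc1a region (chrX:148450260-148452002) was 1743 bp wide and reached 711 bp upstream and 1031 bp downstream of the start. The Smc3 region (chr19:53674101-53675737) was 1637 bp wide, with 785 bp upstream and 851 bp downstream. Both midpoints fell in a UTR exon. Rad21 encodes the kleisin subunit that closes the ring and is cut at anaphase. Its region (chr15:51821719-51823894) was 2176 bp wide with its midpoint in an intron, and extended 588 bp upstream and 1587 bp downstream. The Smc1a and Smc3 regions lay more evenly about the start than the Rad21 region, most of which was inside the gene.

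The Smc1a region also held the coding start of Ribc1, which lies 133 bp from that of Smc1a on the other strand. Ribc1 had 0 regions under its own name. Start regions with coding starts of different genes on both strands were 9.75% of the 9083 start regions, and 2 of the 10 examined here (Smc1a and Mau2).

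Ctcf had 1 region (chr8:108159666-108161470) of 1805 bp, with 813 bp upstream and 991 bp downstream of the GENCODE coding start at position 108160479, which lies downstream of the sequence printed above. Its midpoint fell in a UTR exon, and 4 annotated starts lay inside it.

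The STAG genes encode alternative subunits of the same complex, and their start regions were unlike. The Stag1 region (chr9:100542818-100545455) was 2638 bp wide, and the Stag2 region (chrX:39501584-39502842) was 1259 bp wide, 1379 bp narrower. Only part of their annotated coding starts lay inside a region. Of the 7 coding starts of Stag1, 4 lay inside its region, and the most upstream start of this 360748-bp gene, at position 100498217, had no region. Of the 6 coding starts of Stag2, 2 lay inside its region, which ended 348 bp downstream of the start used, and the next coding start followed at 366 bp, just past the edge.

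Nipbl encodes the large loader subunit and had the widest region of the 10 (chr15:8393355-8396595). It was 3241 bp wide, wider than 99.5% of all start regions, and extended 2132 bp upstream and 1108 bp downstream. Its midpoint lay 512 bp upstream of the assigned start. The nearest region on the left of the Nipbl region was 273539 bp away and that on the right 121592 bp away, while the median gap between neighboring regions was 72839 bp.

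The PDS5 genes encode paired regulators. The Pds5a region (chr5:66088943-66090109) was 1167 bp wide and lay mostly upstream, with 1014 bp before and 152 bp after the start. The Pds5b region (chr5:151475540-151477283) was 1744 bp wide, 577 bp wider than that of Pds5a, with 774 bp before and 969 bp after the start.

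Over the 9 genes with their own start region, widths ranged from 1167 to 3241 bp (median 1744, mean 1934, SD over genes 660). The median of all 9083 start regions was 1294 bp. With the Mau2 start included, 7 of 10 regions were wider than that median, and Stag2, Mau2 and Pds5a were narrower. Regions of 2 kb or wider were 9.97% of start regions and included those of Rad21, Stag1 and Nipbl. Width rises with depth, and the edges are those of 1 library, so these widths carry no error.

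The start regions were rich in CpG. CpG frequency, the number of CpG dinucleotides per 100 bp of region, had a median of 8.60 over the 9 genes (mean 8.64, SD over genes 2.77), and of 5.93 over all start regions. It was highest for Pds5a at 13.9, above 99.9% of start regions, followed by Ctcf at 11.7, Smc3 at 9.22, Stag1 at 9.06 and Pds5b at 8.60. The Mau2 start region had 8.37, Nipbl 7.03, Stag2 6.75 and Rad21 6.53. Smc1a was the exception among the 10, with 4.99, below the median of all start regions. GC content followed a similar order, from 71.4% in Pds5a and 70.1% in Ctcf to 53.4% in Smc1a, beside a median of 58.1% for all start regions.

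Smc1a and Stag2 are X-linked. Among the 367 start regions on the X chromosome, where the median CpG frequency was 4.67 and the median width 1211 bp, Smc1a ranked at percentile 56.0 for CpG frequency and Stag2 at 85.1. Their widths ranked at percentiles 89.2 and 56.5.

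**Figure D2:**
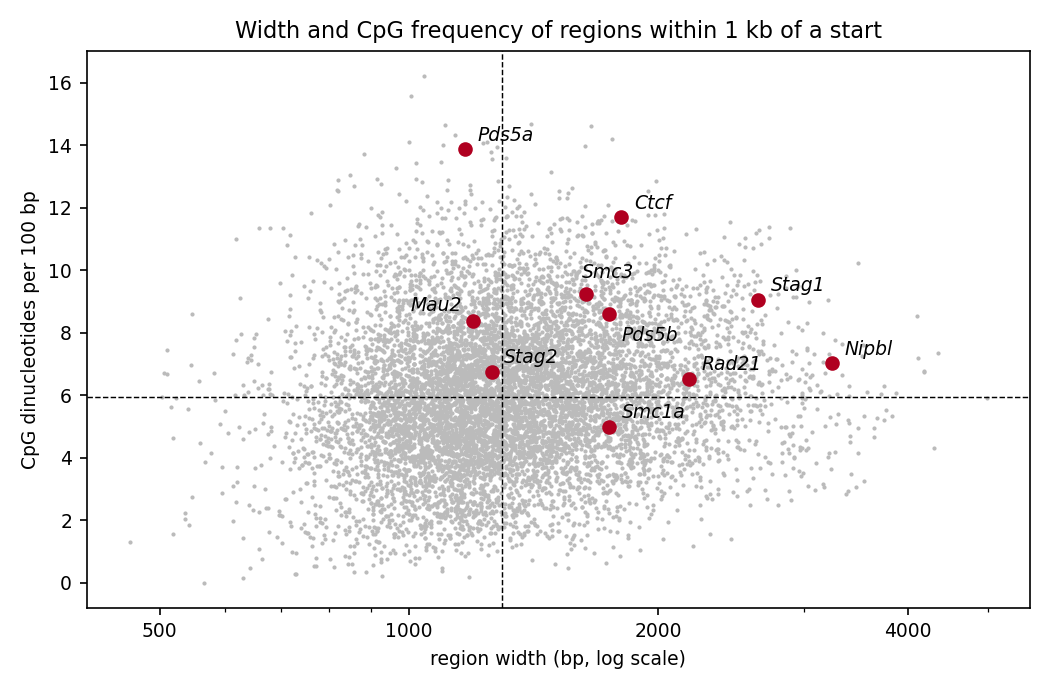
Width (bp, log scale) against CpG frequency of the 9083 start regions (grey points), with the 10 regions at the starts of CTCF and cohesin genes in red, and dashed lines at the medians of 1294 bp and 5.93 CpG per 100 bp. Of the 10, 9 lie above the CpG median, with Smc1a below it, and 7 are wider than the width median.

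CpG frequency was also counted in 100-bp bins around each start. The highest bin reached 23 CpG per 100 bp in Ctcf and Stag1 and 22 in Pds5a, and the lowest peaks were 13, in Smc1a and Mau2. The median profile of the 9645 coding genes with an open start peaked at 9. That profile is a median over genes in each bin and is smoother than that of a single gene, so peaks of single genes stand above it more readily. The positions of the peaks varied. They lay 250 bp upstream of the start in Ctcf, 350 bp upstream in Nipbl, and 550 bp downstream in Stag1 and Stag2. In Pds5a the bins 350 and 250 bp upstream were tied at 22. The Stag2 peak lay outside its start region, which ended 348 bp downstream of the start. Bins with at least 5 CpG, which were not all adjacent, added up to 2100 bp in Nipbl, 1900 bp in Ctcf and 900 bp in Smc1a. Such bins added up to 1300 to 1800 bp in the other genes and to 700 bp in the median profile.

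**Figure D3:**
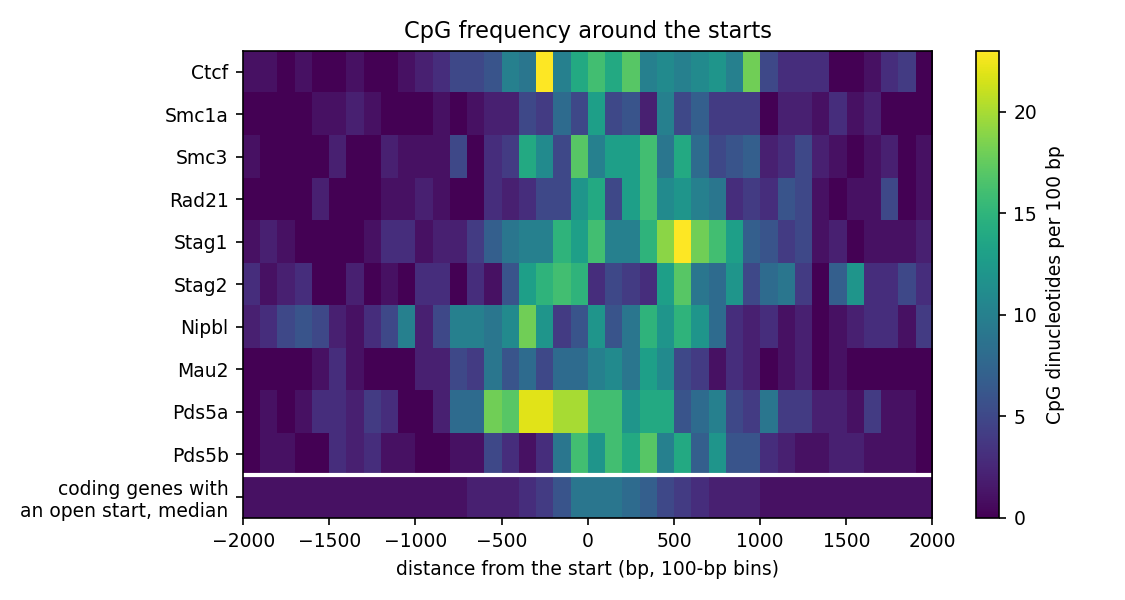
CpG frequency in 100-bp bins from 2000 bp upstream to 2000 bp downstream of the start, 1 row per gene, with the median of coding genes with an open start in the last row. Color gives CpG dinucleotides per 100 bp, and the brightest bins, at 23, are those of Ctcf and Stag1.

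The CTCF core pattern was searched in the genes that encode CTCF and its partners. The pattern was CCNNNAGNNGGC, where N is any base, on both strands, and 7 of its letters are fixed. In the 300 bp from 250 bp before the start to 50 bp after it, it was found in 3 of 10 genes (Rad21, Stag2 and Pds5b), with its center 39 bp upstream of the start in Stag2 and 40 bp upstream in Pds5b. The same window held it in 14.0% of the 9645 coding genes with an open start. Base composition moved with this share, which was 10.3%, 12.6%, 15.7% and 18.1% in 4 groups of windows ordered from low to high CpG frequency. Of the 10 genes, 0, 2, 2 and 6 fell in these groups. Which start was used changed the count: with the start nearest the region's midpoint, Stag1 was added and 4 genes held the pattern. In the central 300 bp of the start regions it was found in 5 of 10 (Ctcf, Rad21, Stag1, Nipbl and Pds5b), against 14.5% of all start regions.

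Over whole regions, 8 of 10 start regions held 15 matches, and those of Smc1a and Pds5a held none. This was 0.806 matches per kb over 18605 bp, beside 0.390 per kb over all start regions, of which 41.1% held a match. The Rad21 region held 4 of the 15 matches, and the other regions with a match held 1 or 2 each. Most of these regions were wider and richer in CpG than the median, and the part of either in the difference was not tested. Pairs of matches in Smc3 and Pds5b had cores in the same orientation as the gene, as did the single matches in Stag2 and Mau2. The pair in Ctcf and the single match in Nipbl had the opposite orientation. Orientations of the Rad21 matches are not given. Stag1 also had a pair in the orientation of the gene, downstream of its start, shown here with 9 flanking bases on each side.
Stag1 site at 131 bp (chr9:100543983-100544012, + strand): gcagcgcggCCAGCAGAGGGCggtcgggac
Stag1 site at 189 bp (chr9:100544041-100544070, + strand): tggaaaatgCCACCAGATGGCgggttagga

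A match is a string of letters and does not show that CTCF was bound, and binding was not measured in these libraries.

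Other patterns common at CpG-rich promoters were searched in the same window and on both strands. The SP/KLF pattern GGGCGG was present in 9 of 10 genes, all but Stag2, and in 68.8% of open starts. The E2F pattern TTTCCCGC was present in Smc1a, Stag1 and Pds5b and in 2.26% of open starts, and TTTGGCGC in Nipbl and in 1.07%. E2F factors drive genes of the cell cycle. The NF-Y pattern GATTGG was present in Smc1a, Stag2 and Pds5b and in 23.0% of open starts, and the ETS pattern CCGGAAG in Rad21 and Nipbl and in 18.4%. The patterns for NRF1, YY1, CRE, E-box, ZFP143 and the TATA box were found in 0 of 10 windows, as were the ISL1 pattern CTAATG (4.47% of open starts) and the GATA pattern AGATAA (5.39%). In all, 14 patterns were searched, with E2F as a pair, and with 10 genes a pattern in a few of them is a description only.

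Regions far from the start were fewer. Rad21, Stag2, Nipbl and Pds5a each had 1 further region more than 10 kb away, 4 of the 9 genes with a start region, against 22.1% of the 8541 coding genes with one. The Nipbl region (chr15:8518188-8519698) lay 124480 bp upstream and was 1511 bp wide, with 4.96 CpG per 100 bp, above 95.4% of the 6740 distal regions. The Pds5a region (chr5:66115250-66116415) lay 26737 bp upstream, was 1166 bp wide and had 2.32. The Rad21 region (chr15:51782921-51783877) lay downstream, 10274 bp beyond the end of the gene, was 957 bp wide and had 1.25. The Stag2 region (chrX:39696071-39697364) lay 65709 bp beyond the end of its gene, was 1294 bp wide and had 1.62. By GENCODE, its nearest coding start was that of Sh2d1a, 159022 bp away. The median distal region was 937 bp wide with 1.25 CpG per 100 bp. None of the 4 held the CTCF pattern in its central 300 bp, which 13.4% of distal regions did. A region is assigned to a gene by position, so whether these act on the named gene was not tested.

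The bodies of the genes held no further region. The 10 genes together spanned 1055.23 kb, and 10 regions overlapped them, the start regions described above. No region lay inside any of the genes beyond 1 kb of a start. Absence of further regions was common, since 79.8% of the 5848 coding genes of at least 20 kb with an open start had none either.

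**Figure D4:**
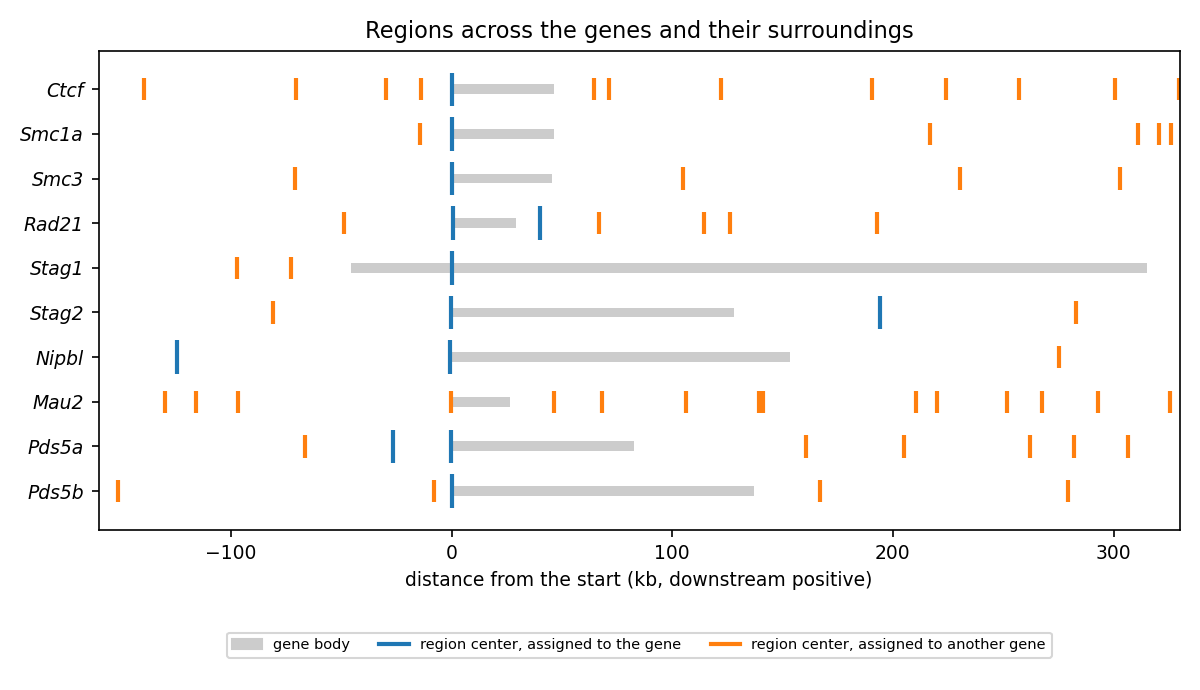
Regions from 160 kb upstream to 330 kb downstream of the start, with gene bodies as grey bars and transcription to the right. Blue lines are centers of regions assigned to the gene and orange lines those assigned to other genes. Blue lines beyond the start appear for Rad21, Stag2, Nipbl and Pds5a, and no line falls inside a gene body away from the start.

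Genes with related functions were counted in the same way. Of 13 other genes of the cohesin cycle, 11 (84.6%) had a region, and each of the 11 had it within 1 kb of the start. The exceptions were Hdac8, which encodes the deacetylase that recycles SMC3, and Cdca5, which encodes sororin, the protector of cohesion. Of 14 condensin and SMC5/6 genes, 10 (71.4%) had a region, and Nsmce2 had 2. A region within 1 kb of the start was assigned to 8 of the 14, beside 40.6% of all protein-coding genes. Smc2 and Smc5 had only an assigned region more than 10 kb away from the assigned start. A GENCODE coding start of Smc2, though not of Smc5, lay inside a region, whose symbol is not given. The condensin genes Smc4, Ncapd2, Ncapd3 and Ncapg had none under their own names. As for Mau2, the start of each of these 4 lay inside a region assigned to a neighbor (Ift80, Mrpl51, Vps26b and 1600023N17Rik, named after their values were seen). Counting regions of any symbol, 13 of 14 had a coding start inside a region, with Smc5 the exception, against 43.4% of coding genes in GENCODE.

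The paralogs used in meiosis or the germline stood at the other end. None of Smc1b, Stag3, Rec8, Rad21l and Ctcfl had a region (0 of 5), beside 49.3% of all protein-coding genes. Only the Stag3 start lay inside a region, assigned to Gpc2. With 5 genes, this is a description only. The somatic relatives Smc1a, Stag1, Stag2, Rad21 and Ctcf, already counted above, each had a start region. Of 8 genes for proteins reported to work with CTCF at chromatin, all 8 had a region, including the factor genes Zfp143, Maz and Patz1. Top2b, which encodes a topoisomerase found at loop anchors, had 6 regions and Yy1 had 2. Chd8 had 2 regions, none of them within 1 kb of its start.

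**Figure D5:**
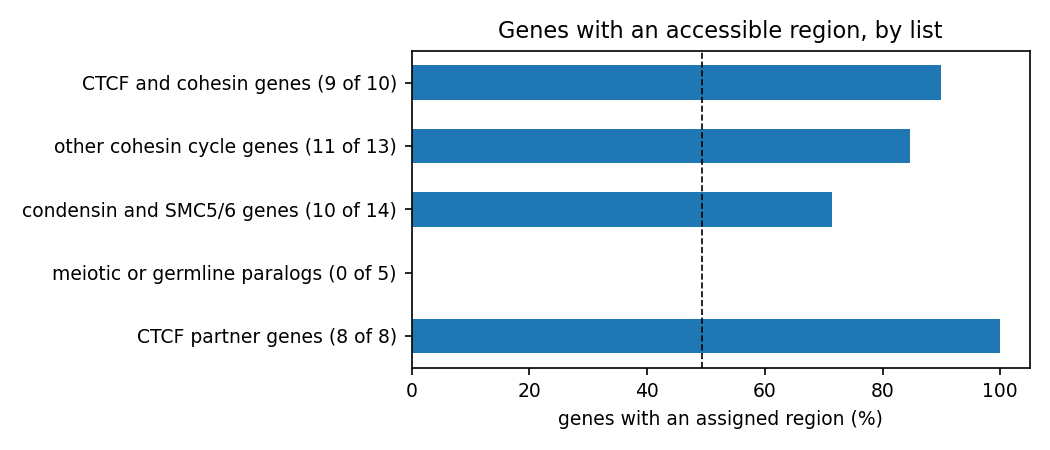
Percent of genes with at least 1 assigned region, for the 10 CTCF and cohesin genes and 4 related lists, with the count after each name. The dashed line marks the 49.3% of all protein-coding genes, and the meiotic or germline paralogs are at 0 of 5.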

How the data were processed

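The genotype given in the labels set the groups of the ATAC-Seq libraries. According to the methods, the authors mapped reads to mm9 with bowtie2, removed duplicates with Picard 1.136, called peaks with MACS14 without a model and with a shift size of 100, removed blacklisted peaks and kept regions common to the replicates with Bedtools 2.15. The deposited file gives, per region, position, distance to the assigned start in bp, RefSeq transcript and symbol, with no count or score. The fixed shift widens regions, no Tn5 offset is stated, and the rule that assigned genes is not given for these regions. Strong sites are favored, since a region had to occur in all 3 libraries, so a missing region does not show closed chromatin.

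Here, repeated rows were counted once, sequence came from NCBIM37 and gene structure from its GENCODE annotation (vM1). The start used was the most upstream coding start inside the region, a choice made after values were seen, except for the printed Ctcf sequence. Scripts used Python 3.11.15, numpy 2.4.6, pandas 2.3.3, pysam 0.24.0, scipy 1.17.1 and matplotlib 3.10.9, and were tested on simulated data. No significance test was made, since no values per library were used. The members and lists were chosen with earlier results of these data known. Genes named were the members, list genes with no region or more than 1, genes sharing a region with a member, and others where stated. Alternatives were the region width, the distance limit, the start used, the gene assignment, the summary and the sequence window. The sequence at 1 start is not reported here.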

Additional observations from a re-analysis of the deposited data

How the results depend on the processing

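Of 30 alternatives, 25 left the value within its limits, 5 moved it and 0 reversed it. The median CpG frequency of 8.60 per 100 bp rose to 13 in the central 300 bp of the regions and to 12 in 300 bp around the start, windows that leave out the region edges. The median of 5.93 over all start regions is for whole regions, and its value in these windows is not given. In another alternative, regions narrower than the median of 1123 bp were left out. The share with a region then fell from 84.6% to 53.8% for other cohesin cycle genes. For condensin and SMC5/6 genes it fell from 71.4% to 42.9%. A region was still assigned to 9 of the 10 CTCF and cohesin genes. The same held for all 8 genes for proteins that work with CTCF, and for 7 of 10 progenitor markers, against 8 before. The share of all protein-coding genes under this limit is not given. Whether keeping a region is particular to the CTCF and cohesin genes was therefore not tested. The CTCF pattern count of 3 became 5 in the central 300 bp of the regions. That window, the start nearest to the midpoint (4) and the inclusion of the Mau2 start region were added after seeing the data. A limit of 500 bp in place of 1 kb left 8 genes, without Nipbl at 512 bp. No paired analysis was possible because the control libraries are held as 1 shared list, and for the same reason no library could be left out. Depth is unknown, so small or weak regions may be missing.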
